A study of Homo sapiens with 8 samples.

Results

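The transcripts of 49 interferon-stimulated genes and nucleic acid sensors were examined in HEK293T cells treated with DZNep, an inhibitor of the enzyme AHCY. The members were chosen by name, with earlier results of these data known, as sensors, adaptors, transcription factors and effectors of the innate antiviral response. They were found by symbol among the 57500 Ensembl genes of the count table. They comprised 9 sensors and adaptors, 5 transcription factors and 35 effectors. RNAseq had been carried out on 8 libraries. The 4 DZNep libraries came from cells given 100 µM DZNep for 48 h and the 4 Control libraries from cells given vehicle for as long, with biological replicates numbered 1 to 4 in each group. All libraries came from the same human embryonic kidney line, which carries the SV40 large T antigen, so the data describe 1 cell line at 1 dose and 1 time. The labels name DMEM as the culture medium and the methods name RPMI, and the vehicle was not given in the sources used here.

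Cells detect viral or misplaced nucleic acid with receptors such as RIGI, IFIH1 and TLR3 for RNA and CGAS for DNA. The adaptors MAVS and STING1 pass the signal to the factors IRF3, IRF7 and NF-kB, which switch on interferon genes. Secreted interferon binds its receptor and, through a complex that holds STAT2 and IRF9, induces effectors that block viral entry, translation and replication. This complex recognises a promoter element called the ISRE, and many effectors can also be induced by IRF1, IRF3 or IRF7 without secreted interferon.

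Promoter sequence was available for 36 of the 49 members in the RefSeq table for GRCh38.p14, and matches to the ISRE are shown for some of the members discussed below. The ISRE core was searched on both strands as GAAA, any 2 bases and GAAA. Of the 36 members, 22 held it in the 250 bases before the start of transcription, compared with 3.71% of 27305 genes in the table. The core was present in 21 of 28 effectors, in 1 of 5 sensors and adaptors and in 0 of 3 transcription factors. The stretches printed here run from 5′ to 3′ on the strand of the gene, with the core in capitals. A core on the other strand reads TTTC, any 2 bases and TTTC, and cores may overlap each other. The first 5 belong to members whose transcripts passed the test upward, ISG15 passed downward, and BST2 and MX1 belong to a set that was low in 1 library. IFIH1 is the only sensor or adaptor, of the 5 with an entry, with the core before its start. A gene was counted if any of its listed starts held the core. MX1 has other listed starts without it in the 250 bases before, and the start that holds it is printed. They lie at chr10:89392492-89392544 (plus strand) for IFIT1, chr10:89327826-89327899 (plus) for IFIT3, chr10:89414508-89414567 (plus) for IFIT5, chr7:93118091-93118130 (minus) for SAMD9, chr4:88456979-88457069 (plus) for HERC5, chr1:1013369-1013414 (plus) for ISG15, chr19:17405730-17405775 (minus) for BST2, chr21:41431839-41431878 (plus) for MX1 and chr2:162318685-162318858 (minus) for IFIH1.
IFIT1: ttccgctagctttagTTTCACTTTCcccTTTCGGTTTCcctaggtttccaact
IFIT3: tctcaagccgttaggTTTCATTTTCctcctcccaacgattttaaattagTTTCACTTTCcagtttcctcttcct
IFIT5: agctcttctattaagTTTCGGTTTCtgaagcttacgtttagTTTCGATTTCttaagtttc
SAMD9: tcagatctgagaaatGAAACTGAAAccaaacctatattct
HERC5: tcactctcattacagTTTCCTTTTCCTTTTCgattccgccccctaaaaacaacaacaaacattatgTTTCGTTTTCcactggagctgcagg
ISG15: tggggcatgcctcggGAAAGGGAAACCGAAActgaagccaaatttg
BST2: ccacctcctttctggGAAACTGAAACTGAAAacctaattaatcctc
MX1: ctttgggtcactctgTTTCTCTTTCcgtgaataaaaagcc
IFIH1: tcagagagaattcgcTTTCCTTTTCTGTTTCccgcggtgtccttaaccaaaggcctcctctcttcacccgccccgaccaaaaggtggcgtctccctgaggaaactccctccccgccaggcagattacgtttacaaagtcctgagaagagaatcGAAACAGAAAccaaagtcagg
The members without an entry in the table were DHX58, CGAS, ZBP1, STING1, IRF3, IRF7, OAS2, OASL, IFIT2, MX2, TRIM22, IFITM2 and USP18.

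Library totals ranged from 25043058 counts in Control replicate 1 to 44902779 counts in DZNep replicate 2, and values below are the authors' normalized counts, that is, counts scaled by the size factor of each library. DZNep replicate 2 stood apart by its low values. Among genes with at least 20 normalized counts in each of the other 7 libraries, 127 of 14596 (0.87%) fell below 0.5 times the lowest of those libraries in it, compared with 1 to 44 genes for any other library. They included 7 members, OAS1, OAS2, MX1, MX2, SAMD9L, TRIM22 and BST2, and calls that were lost without it are named beside their values. By high values Control replicate 4 stood apart more, with 67 genes over 3 times every other library, compared with 22 in DZNep replicate 2 and 0 to 3 in the others. Control replicate 4 was also the lowest library for 20.7% of genes tested, and DZNep replicate 2 for 16.2%. Within both groups, replicates 1 and 4 also had a larger share of mitochondrial counts (7.04% to 13.7%) than replicates 2 and 3 (3.02% to 4.44%). For 19 of 48 members tested, replicates 1 and 4 lay above replicates 2 and 3 in Control and in DZNep, against 19.2% of all genes tested, and for 6 members they lay below in both, against 20.3% of all genes.

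Most members did not pass the test, and those that passed were mainly higher. By edgeR's quasi-likelihood test at an adjusted p under 0.05 and a log2 fold change above 1 or below -1, 9 of the 48 members tested were called higher, where 10.6% of 19171 genes were called higher, and 2 were called lower, where 13.5% of genes were. The 9 were TLR3, STING1, IRF1, IRF7, OASL, IFIT2, IFIT3, SAMD9 and IFITM2, and the 2 were ISG15 and IRF3. With the adjusted p alone, 16 members were higher (19.1% of all genes) and 3 were lower (21.8% of all genes). The lowest DZNep library exceeded the highest Control library for 14 members, and the reverse held for 2, compared with 19.5% and 19.4% of all genes. The median log2 fold change was 0.20 over the members and -0.03 over all genes tested. In RNA from whole cultures, fewer cells that express a gene and less of its RNA per cell cannot be told apart. Without DZNep replicate 2, 9 members were again higher (9.97% of all genes tested) and 1 was lower (12.1%), and 10 of the 11 calls were the same.

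**Figure D1:**
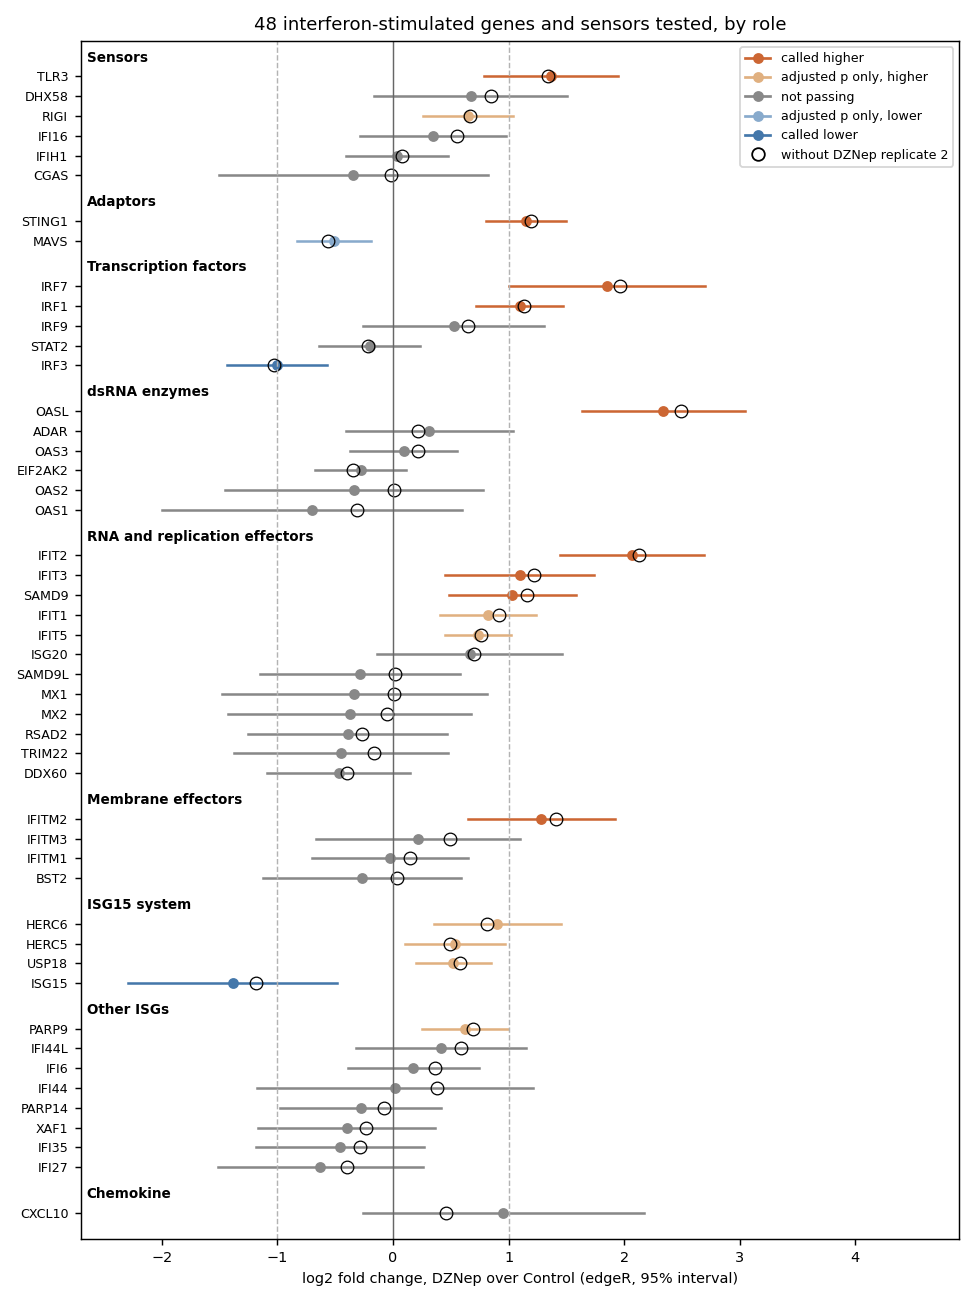
Log2 fold change of DZNep over Control for the 48 members tested, grouped by role, with filled points for edgeR's estimate from all 8 libraries, lines for its 95% confidence interval and open circles for the estimate without DZNep replicate 2. Dashed lines mark log2 fold changes of -1 and 1. OASL (2.34) and IFIT2 (2.07) lie farthest to the right and ISG15 (-1.39) farthest to the left. The open circles of OAS1, OAS2, MX1, MX2, SAMD9L, TRIM22 and BST2 lie closer to 0 than their filled points. These genes were chosen for low values in DZNep replicate 2, so an upward shift without it follows from the choice.

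Among the 6 sensors tested, TLR3 was called higher. TLR3, the endosomal receptor for viral dsRNA (chr4:186068911-186088073), had 17.0, 30.4, 25.1 and 20.4 normalized counts in Control replicates 1 to 4 and 57.1, 66.0, 66.5 and 57.4 in DZNep replicates 1 to 4. The groups did not overlap, and the log2 fold change was 1.37 ± 0.26 (SE; edgeR, adjusted p = 0.00218). RIGI, the cytosolic helicase that senses RNA with a triphosphate end, had 116, 136, 109 and 107 in Control and 189, 184, 210 and 165 in DZNep. Every DZNep library was again above every Control library, but the change was smaller, at 0.65 ± 0.17 (edgeR, adjusted p = 0.0132), and stayed under the fold threshold.

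The sister helicase IFIH1 (MDA5), which binds long dsRNA, had 168, 157, 144 and 113 in Control and 157, 143, 181 and 127 in DZNep, so the groups overlapped throughout. Its log2 fold change was 0.04, with a 95% interval from -0.40 to 0.48. DHX58 (LGP2), which lacks the signalling domain of RIGI and IFIH1, had 40.1, 20.5, 16.1 and 43.0 in Control and 56.2, 30.6, 49.2 and 56.2 in DZNep. It was higher in 4 of 4 pairs of the same replicate number, yet the Control and DZNep ranges overlapped and the change of 0.67 ± 0.38 did not pass (edgeR, adjusted p = 0.182).

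The DNA sensors did not pass the test, and CGAS was close to the limit of counting. CGAS, which makes the messenger that activates STING1, had 5 to 23 raw counts in a library. Its normalized counts were 26.2, 9.82, 12.5 and 24.7 in Control and 19.95, 4.03, 13.0 and 21.4 in DZNep, with the lowest value in DZNep replicate 2. The log2 fold change was -0.34 with an interval from -1.51 to 0.82, and -0.02 without that library. The interval from all libraries includes a fall of the size of the fold threshold, so such a fall was not excluded at this depth. IFI16, a nuclear DNA-binding protein, had 122, 74.1, 86.0 and 97.8 in Control and 139, 68.5, 120 and 163 in DZNep (log2 fold change 0.34; edgeR, adjusted p = 0.365). Its change was 0.55 without DZNep replicate 2 and did not pass. ZBP1, a receptor for Z-form nucleic acid, had 0 counts in all 8 libraries, which allows up to 0.12 CPM (counts per 1e+06 counts of the library) in the shallowest.

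The adaptors moved in opposite directions. STING1, the adaptor of the endoplasmic reticulum that acts downstream of CGAS (chr5:139475533-139482935), had 274, 271, 258 and 208 normalized counts in Control and 633, 524, 609 and 522 in DZNep. All DZNep libraries were well above all Control libraries, with a log2 fold change of 1.15 ± 0.16 (edgeR, adjusted p = 0.000307), between 1.06 and 1.199 when any 1 library was left out. MAVS, the mitochondrial adaptor that serves RIGI and IFIH1, had 3068, 3302, 2926 and 3843 in Control and 2287, 2637, 2401 and 2091 in DZNep. Its groups did not overlap either, and it fell by 0.51 on the log2 scale (SE 0.14; edgeR, adjusted p = 0.0174), under the fold threshold, with an adjusted p of 0.0682 by edgeR without DZNep replicate 1.

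Of the 5 transcription factors, IRF1 and IRF7 were called higher and IRF3 lower. IRF7, the inducible factor that amplifies type I interferon (chr11:612553-615983), had 55.5, 25.9, 21.5 and 14.0 in Control and 114, 80.5, 105 and 120 in DZNep. Control replicate 1 was the highest Control library and still lay below every DZNep library. The log2 fold change was 1.85 ± 0.38 (edgeR, adjusted p = 0.00336). IRF1, a factor that acts on many of the same promoters, had 385, 302, 275 and 401 in Control and 742, 693, 673 and 856 in DZNep, an increase of 1.09 ± 0.17 (edgeR, adjusted p = 0.000654) with no overlap. As annotated, 22.9% of the exon bases of IRF1 are shared with the antisense gene IRF1-AS1, and the sources used here do not state whether counting used strand, so reads of this pair may be mixed.

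IRF3, the ready-made factor that TBK1 phosphorylates below both adaptors (chr19:49659569-49665875), had 2713, 1890, 2058 and 3050 in Control and 1144, 1313, 1001 and 1482 in DZNep. Every DZNep library was below every Control library. The log2 fold change was -1.004 ± 0.19 (edgeR, adjusted p = 0.00237), so the size sat on the fold threshold. It was -0.97 by DESeq2 and -0.99 with the replicate block and was then not called. The call was also lost without Control replicate 1, Control replicate 4, DZNep replicate 1 or DZNep replicate 3. With any 1 library left out the change was between -1.11 and -0.88, and the adjusted p by edgeR stayed at or below 0.0124. IRF3 shares 19.4% of its exon bases with BCL2L12. The remaining partners of the interferon-driven complex did not pass. STAT2 had a log2 fold change of -0.20 (edgeR, adjusted p = 0.444) and IRF9 of 0.53 (0.261).

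**Figure D2:**
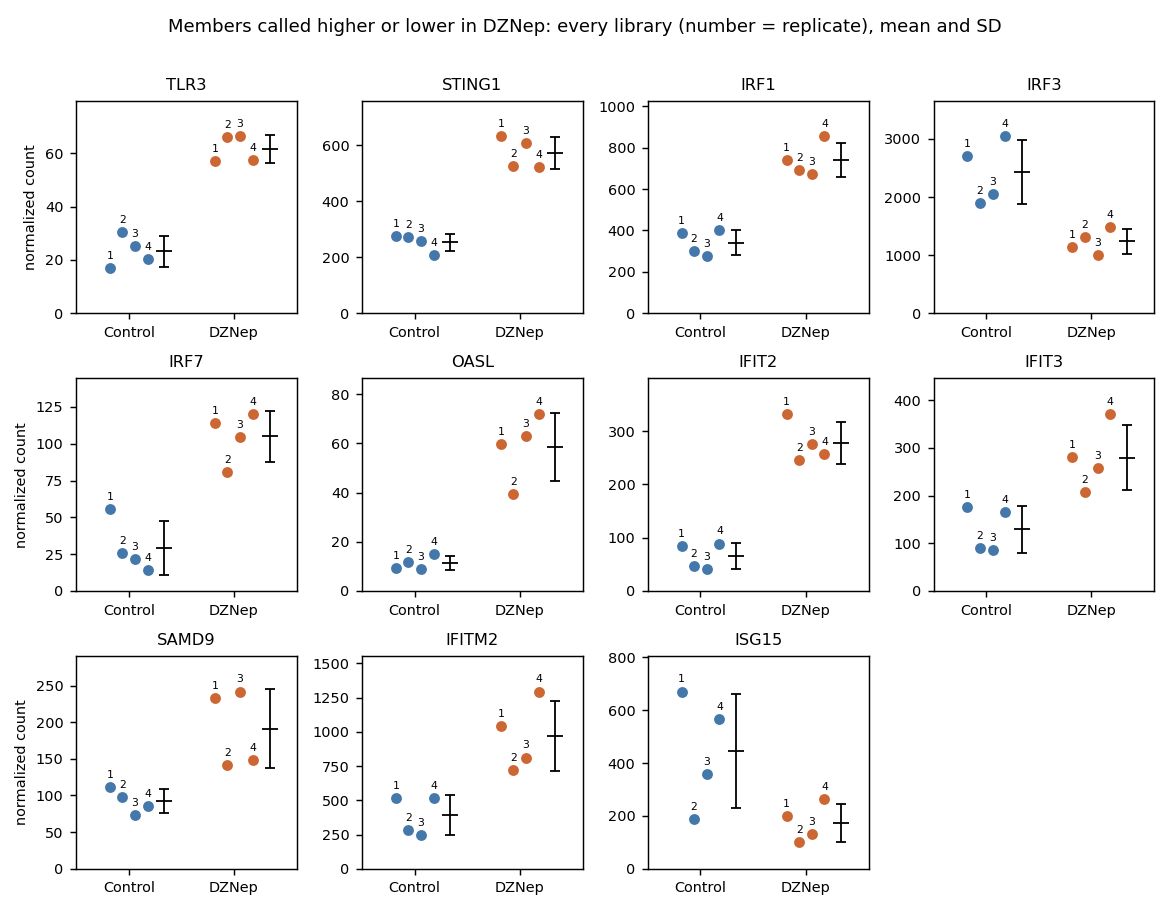
Normalized counts of the 11 members called higher or lower, with 1 point per library labelled by its replicate number (Control blue, DZNep orange) and the mean with its SD (n = 4) beside each group, on axes that start at 0. The groups are separated in every panel except ISG15, where Control replicate 2 (187) lies between DZNep replicates 3 and 1.

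Of the 6 genes grouped as dsRNA enzymes or their relatives, OASL was the only one that passed. OASL, a relative of the oligoadenylate synthetases that has lost their activity and binds RIGI (chr12:121017763-121039246), had 9.25, 11.6, 8.96 and 15.04 in Control and 59.9, 39.5, 63.0 and 72.0 in DZNep. It had the largest log2 fold change of all members, 2.34 ± 0.32 (edgeR, adjusted p = 0.000311), and also passed edgeR's glmTreat test against a log2 fold change of 1. Its own count was low, between 6 and 73 reads in a library. The active synthetases OAS1, OAS2 and OAS3, which make a small messenger on binding dsRNA, had log2 fold changes of -0.70, -0.33 and 0.09 and did not pass.

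EIF2AK2 (PKR), the kinase that stops translation on binding dsRNA, had 2593, 3718, 3309 and 2779 in Control and 2486, 2980, 2924 and 2008 in DZNep, a log2 fold change of -0.28 (edgeR, adjusted p = 0.234). ADAR, which edits dsRNA and keeps the cell's own RNA from the sensors, had 6641, 14622, 10444 and 5491 in Control and 11629, 14261, 14159 and 6986 in DZNep, a log2 fold change of 0.31 (edgeR, adjusted p = 0.476). Both were lowest in replicates 1 and 4 of each group. With the replicate number as a block, both passed edgeR's adjusted p (0.0457 for EIF2AK2, fold change -0.28, and 0.0316 for ADAR, 0.36), still under the fold threshold, where 28.8% of all genes passed upward and 30.2% downward by the p alone, with 18 and 5 of the members. ISG20 (0.75; edgeR, adjusted p = 0.0338) and IFI27 (-0.66; 0.0331), which did not pass without the block, passed with it.

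The 4 IFIT genes, which lie next to each other on chromosome 10 and encode proteins that bind foreign RNA and block its translation, all passed the adjusted p upward. IFIT2 (chr10:89283694-89309271) had 84.8, 47.3, 41.2 and 89.2 in Control and 333, 246, 276 and 258 in DZNep. The lowest DZNep library exceeded the highest Control library by a wide margin, and the log2 fold change was 2.07 ± 0.28 (edgeR, adjusted p = 0.000301). IFIT3, its partner in the same complex (chr10:89327307-89377473), had 176, 89.3, 85.1 and 165 in Control and 281, 207, 258 and 371 in DZNep. It rose by 1.10 ± 0.29 (edgeR, adjusted p = 0.0127), and by 0.93 to 0.95 when Control replicate 2, Control replicate 3 or DZNep replicate 4 was left out, which is under the fold threshold.

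IFIT1 and IFIT5 started from higher counts and changed less. IFIT1, which holds RNA that lacks cap methylation, had 322, 394, 314 and 487 in Control and 695, 563, 659 and 821 in DZNep, a log2 fold change of 0.82 ± 0.19 (edgeR, adjusted p = 0.00597). IFIT5 had 1139, 915, 933 and 984 in Control and 1767, 1616, 1672 and 1686 in DZNep, a change of 0.74 ± 0.13 (edgeR, adjusted p = 0.00136). The groups of both genes were separate. IFIT genes are paralogs, and reads shared between them may have been dropped by counting unique reads only.

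Of the 8 other RNA and replication effectors, SAMD9 was called higher. SAMD9, a restriction factor of poxviruses (chr7:93099513-93118023), had 111, 98.2, 73.5 and 85.9 in Control and 233, 142, 242 and 148 in DZNep. The groups did not overlap, but DZNep replicates 2 and 4 were much closer to Control than replicates 1 and 3 were. Its log2 fold change of 1.03 ± 0.25 (edgeR, adjusted p = 0.00738) became 0.9998 with the replicate block and 0.91 to 1.00 without Control replicate 3, Control replicate 4, DZNep replicate 1 or DZNep replicate 3, and was then not called. Its neighbour and paralog SAMD9L had a log2 fold change of -0.28. The dynamin-like GTPases MX1 and MX2, the radical SAM enzyme RSAD2, the nuclease ISG20, the helicase DDX60 and the ubiquitin ligase TRIM22 did not pass, with log2 fold changes between -0.47 (DDX60) and 0.66 (ISG20).

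Among the 4 membrane effectors, IFITM2 was called higher. IFITM2, which hinders fusion of virus and host membranes (chr11:303655-309397), had 518, 281, 250 and 518 in Control and 1045, 724, 813 and 1295 in DZNep. The groups did not overlap, with a log2 fold change of 1.28 ± 0.29 (edgeR, adjusted p = 0.00524). The adjacent paralogs IFITM1 and IFITM3 had changes of -0.02 and 0.22 and overlapping groups, and IFITM1 changed sign under most alternatives. The 3 genes are close paralogs, so the split of reads between them is uncertain. In all 3, and in BST2, replicates 1 and 4 were higher than replicates 2 and 3 in both groups, the pattern that the mitochondrial share also followed, and its part in these values was not tested.

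The ISG15 system divided. ISG15, a ubiquitin-like protein that is attached to other proteins (chr1:1001138-1014540), had 671, 187, 359 and 565 in Control and 199, 101, 132 and 263 in DZNep. Within each replicate number DZNep was the lower library in 4 of 4 pairs, while across numbers the groups overlapped, since Control replicate 2 was below DZNep replicates 1 and 4. ISG15 fell by 1.39 on the log2 scale (SE 0.41; edgeR, adjusted p = 0.0202). The adjusted p was 0.0598 without Control replicate 1, 0.0572 without DZNep replicate 2 and 0.0625 without DZNep replicate 3, and 7.26e-06 with the replicate block.

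The ligase and protease genes of the same system were higher at the adjusted p alone. HERC5, the ligase that attaches ISG15, had 604, 948, 693 and 531 in Control and 1031, 1132, 1095 and 845 in DZNep, a log2 fold change of 0.54 ± 0.20 (edgeR, adjusted p = 0.0491). Its adjusted p by edgeR was 0.117 without DZNep replicate 2, and between 0.0984 and 0.13 without Control replicate 1, 3 or 4 or DZNep replicate 1 or 3. HERC6, a related ligase gene beside it on chromosome 4, had 284, 465, 382 and 241 in Control and 653, 781, 738 and 440 in DZNep, a change of 0.90 ± 0.25 (edgeR, adjusted p = 0.0146). USP18, which removes ISG15 and also dampens the interferon receptor, had 621, 681, 594 and 718 in Control and 1076, 862, 846 and 1044 in DZNep, a change of 0.52 ± 0.14 (edgeR, adjusted p = 0.0155).

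Of the 8 remaining interferon-stimulated genes, PARP9 passed the adjusted p. PARP9, a partner of a ubiquitin ligase in the DNA damage and antiviral responses, had 208, 204, 210 and 174 in Control and 346, 270, 357 and 273 in DZNep, with separate groups and a log2 fold change of 0.62 ± 0.17 (edgeR, adjusted p = 0.0138). PARP14 had a change of -0.28, and IFI6, IFI27, IFI35, IFI44, IFI44L and XAF1 lay between -0.63 (IFI27) and 0.42 (IFI44L), without passing. IFI6 and XAF1 share 23.1% and 38.3% of their exon bases with other genes. CXCL10, the chemokine that attracts T cells, had 21.6, 6.25, 8.06 and 27.9 in Control and 19.95, 57.2, 19.9 and 25.9 in DZNep. Its log2 fold change of 0.95 (edgeR, adjusted p = 0.192) was 0.46 without DZNep replicate 2, the library with the highest value.

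Set side by side, the sensors and adaptors had a median log2 fold change of 0.50 over 8 genes tested and the effectors of 0.09 over 35, compared with -0.03 over all genes tested. The test called 2 of the 8 sensors and adaptors higher and 0 lower, and 5 of the 35 effectors higher and 1 lower, beside 10.6% and 13.5% of all genes. With the adjusted p alone the counts were 3 higher and 1 lower of 8, and 11 higher and 1 lower of 35, beside 19.1% and 21.8% of all genes. The difference between the roles was not tested. The median of the effectors was 0.22 without DZNep replicate 2, -0.04 without Control replicate 3 and -0.05 without DZNep replicate 4, so its sign turned on single libraries, while that of the sensors and adaptors was between 0.38 and 0.61 with any 1 library left out.

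The members low in DZNep replicate 2 were 7 of the 39 with at least 20 normalized counts in every other library. They included some common readouts of interferon, such as OAS1 and MX1, but not others. IFIT1 (563, compared with 314 to 821), IFI44L and RSAD2 lay within the range of the other libraries. ISG15 and IFI6 were lowest there, at 0.76 and 0.92 times the lowest other library. OAS1 had 4.83 normalized counts in that library and 41.2 to 94.0 in the others. MX1 had 28.2, compared with 103 to 240 elsewhere. BST2 (tetherin) had 45.9, compared with 135 to 225.

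Summed over the 7 genes, the level was 152 in DZNep replicate 2, 517 to 927 in the other DZNep libraries and 516 to 934 in the Control libraries. The 7 were chosen for low values in DZNep replicate 2, so the low sum there and higher fold changes without it follow from the choice. Their log2 fold changes ran from -0.70 to -0.27 with all libraries and from -0.31 to 0.03 without this one, and none passed the adjusted p either way. Of the 48 members with counts, 18 were lowest in DZNep replicate 2, compared with the 16.2% of all genes given above.

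The same library differed in genes that are not interferon-stimulated. COL1A2, a fibrillar collagen chain, had 19 raw counts there and 1002 to 1816 in the other libraries. LYZ, a myeloid marker, had 559 compared with 17 to 25. The other myeloid markers of the blood list did not follow LYZ. CD14 was low in this library, with 27 raw counts compared with 60 to 137. In normalized counts ITGAM (66.8) and CD68 (13.7) lay within the range of the other libraries. The inducible GTPase gene GBP5 had 190 compared with 1 to 10, and CXCL10 had 71 compared with 7 to 26, so the library was low in 7 members and high in CXCL10 and GBP5, which interferon also induces. The relation of these differences to one another was not tested.

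**Figure D3:**
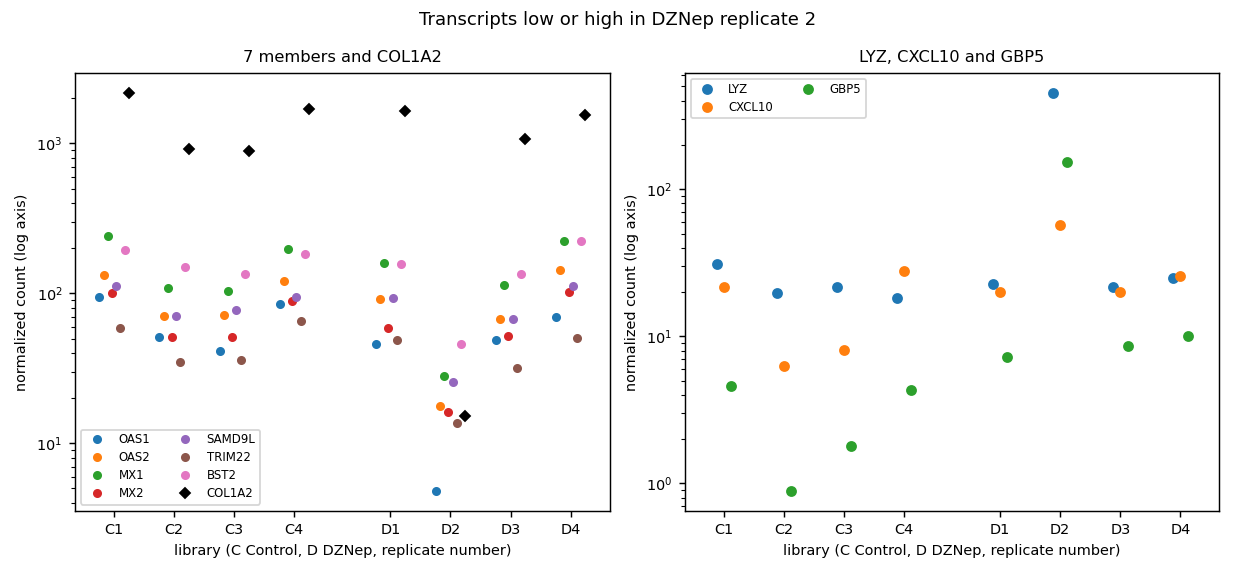
Normalized counts (log axis) in each Control (C1 to C4) and DZNep (D1 to D4) library of the 7 members that were low in DZNep replicate 2 with COL1A2 (left), and of LYZ, CXCL10 and GBP5, which were high there (right). In D2 every gene on the left lies below all other libraries, with OAS1 at 4.83 and COL1A2 at 15.3. Every gene on the right lies above all other libraries there, with LYZ at 450. The genes were chosen for these values in D2.

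Markers of other cell types were checked beside these results. Of 13 blood cell markers, 6 passed the filter and none passed the test. The defining B cell and red cell markers MS4A1 and HBB had 0 counts in all libraries, and the T cell marker CD3E had 0 in Control and 8.16 to 40.5 normalized counts in DZNep. Of 5 dendritic cell markers, CLEC4C and LILRA4 did not pass the filter. FLT3 was called lower, a call that was lost without DZNep replicate 2 (edgeR, adjusted p = 0.0721), DZNep replicate 3, Control replicate 2 or Control replicate 3. IL3RA was not called by this test (-1.40; edgeR, adjusted p = 0.0937) but was called lower with the replicate block (0.00845). Of 7 fibroblast and endothelial markers, 3 were called higher (LUM, VWF and CLDN5), where 10.6% of all genes were. VWF had 1.79 to 4.62 normalized counts in Control and 73.1 to 118 in DZNep. The others, COL1A1 (0.33), DCN (0.36), PECAM1 (-0.22) and COL1A2 (-0.43), did not pass. The summed level of the blood list was 215 to 430 in Control and 281 to 695 in DZNep, that of the dendritic list 116 to 298 and 89.8 to 174, and that of the fibroblast and endothelial list 3478 to 7033 and 2988 to 7264. Their part in the members' values was not tested. Of 9 genes expected in HEK293 cells, such as VIM and NEFL, all passed the filter, with KRT8 called higher and LHX1 lower.

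Per length, the members covered a wide span of levels. In Control, IFI6 had the highest mean, 951 ± 194 normalized counts per kb of exon (SD, n = 4), followed by ADAR at 760 ± 338, IRF3 at 640 ± 144, ISG15 at 514 ± 248 and IFITM1 at 427 ± 165. Neighbours in this order differed by less than the larger of their SDs. At the low end were TLR3 at 3.10 ± 0.776, XAF1 at 2.42 ± 0.627 and OASL at 1.78 ± 0.445, with ZBP1 at 0.

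Among the sensors, IFIH1 had the highest level per length in Control, 27.9 ± 4.57, then IFI16 at 17.9 ± 3.85, RIGI at 11.3 ± 1.25, DHX58 at 7.83 ± 3.55, CGAS at 4.39 ± 2.00 and TLR3. In DZNep, TLR3 reached 8.24 ± 0.695, above CGAS at 3.49 ± 1.90. MAVS and STING1 stood at 279 ± 34.2 and 52.7 ± 6.38 per kb in Control and at 200 ± 19.4 and 119 ± 11.95 in DZNep. IFITM2 went from eighth to the third highest level among the members and IRF3 from the third to the sixth.

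**Figure D4:**
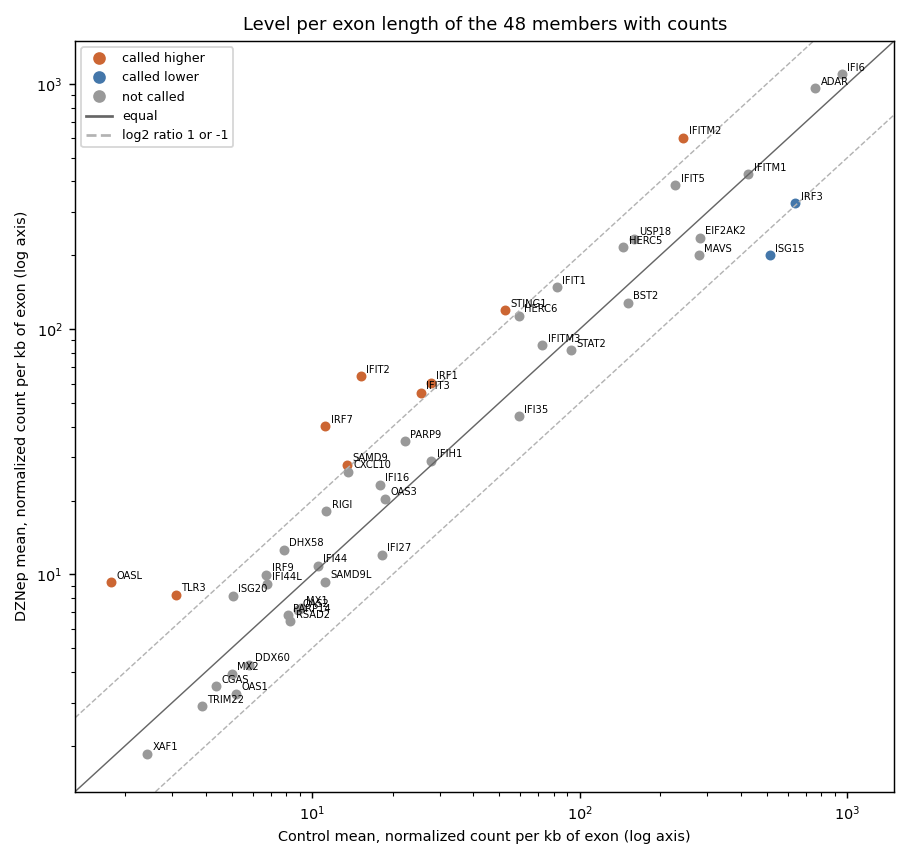
Mean level of each of the 48 members with counts in DZNep against Control, in normalized counts per kb of exon on log axes, with the solid line at equal levels and dashed lines at log2 ratios of 1 and -1. OASL (1.78 in Control, 9.27 in DZNep), TLR3, IFIT2 and IRF7 lie farthest above the solid line, ISG15 (514 and 200) farthest below it, and IFI6 and ADAR at the upper right.

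Beyond the listed members, 132 genes of the same pathways were examined, of which 104 were tested. The test called 8 higher and 3 lower, beside 10.6% and 13.5% of all genes, and the adjusted p alone gave 25 higher and 8 lower, beside 19.1% and 21.8%. The interferon genes themselves were not measurable: of 21 type I, II and III interferon genes, 9 had 0 counts in every library, including IFNB1 and IFNG, none exceeded 5 counts in a library, and the 21 together had 2 to 13 counts per library. No direction can be read from these counts.

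Of 11 receptor and JAK-STAT genes, IFNAR2 was called lower. IFNAR2, the high-affinity chain of the type I interferon receptor, had 681, 606, 596 and 645 in Control and 189, 210, 260 and 226 in DZNep. The groups were far apart, with a log2 fold change of -1.54 ± 0.15 (edgeR, adjusted p = 5.74e-05), although 27.7% of its exon bases are shared, mostly with the readthrough gene IFNAR2-IL10RB. Its partner IFNAR1 had a change of -0.18 (edgeR, adjusted p = 0.569) and of -0.30 without DZNep replicate 2. TYK2, the kinase bound to IFNAR1, had 2390, 2740, 2882 and 2312 in Control and 4994, 4855, 5231 and 4432 in DZNep, a change of 0.89 ± 0.14 (edgeR, adjusted p = 0.000624), with no overlap but under the fold threshold. Among 7 feedback genes, the STAT inhibitor PIAS3 (0.42; edgeR, adjusted p = 0.0316) and the phosphatase PTPN6 (0.57; 0.0395) passed the adjusted p upward, and SOCS1, an inhibitor of JAK kinases, had a change of 1.27 that did not pass (0.0702). PIAS3 did not pass without DZNep replicate 2 (0.37; edgeR, adjusted p = 0.0875). SOCS1 was called higher with the replicate block (1.37; edgeR, adjusted p = 0.00228), by DESeq2 (0.0324) and by limma (0.0382).

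Among 21 genes that link sensors to transcription, RNF135 was called lower. RNF135 (Riplet), the ubiquitin ligase that activates RIGI, had 863, 707, 684 and 822 in Control and 375, 234, 306 and 382 in DZNep, a log2 fold change of -1.27 ± 0.19 (edgeR, adjusted p = 0.000463). RELA, the main NF-kB subunit, had 2641, 2752, 2937 and 2400 in Control and 5120, 4543, 4364 and 5051 in DZNep, a change of 0.80 ± 0.13 (edgeR, adjusted p = 0.000953). MYD88, an adaptor of Toll-like receptors (0.77; edgeR, adjusted p = 0.00341), and TBK1, the kinase of IRF3 (0.45; 0.0174), also passed the adjusted p upward, and IKBKB (-0.57; 0.0223) passed downward.

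Of 9 other genes of the Toll-like receptor system, 6 were tested and TLR1, a receptor for bacterial lipopeptides, was called higher. It had 20.04, 27.7, 17.0 and 9.67 in Control and 89.8, 134, 116 and 46.1 in DZNep, a log2 fold change of 2.34 ± 0.41 (edgeR, adjusted p = 0.00125). TLR6, its neighbour on chromosome 4, had a change of 0.73 (edgeR, adjusted p = 0.0992), which passed the adjusted p with the replicate block (0.00803). TLR7, TLR8 and TLR9, the endosomal receptors for RNA and DNA, did not pass the filter on low counts.

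Among 12 genes that remove or edit nucleic acid, RNASEH2B was called lower. RNASEH2B, a subunit of the nuclease that removes RNA from DNA and whose loss is known to activate CGAS, had 2890, 1457, 1984 and 2322 in Control and 1005, 759, 776 and 1189 in DZNep. No DZNep library reached a Control library, and the log2 fold change was -1.24 ± 0.23 (edgeR, adjusted p = 0.00189). PNPT1, a mitochondrial RNA exonuclease, had a change of -0.52 (edgeR, adjusted p = 0.0124), and DNASE2, the lysosomal nuclease, of 0.46 (0.0182). TREX1 had 0 counts, and 100% of its exon bases are shared with ATRIP, so its level cannot be read from these counts.

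Of 14 NF-kB target genes, 13 were tested and 3 were called higher, where 10.6% of all genes were. BIRC3, an inhibitor of apoptosis, had 43.2, 32.1, 30.5 and 40.8 in Control and 146, 155, 155 and 136 in DZNep, a log2 fold change of 1.99 ± 0.21 (edgeR, adjusted p = 7.47e-05). RELB, an NF-kB subunit, had a change of 1.32 ± 0.19 (edgeR, adjusted p = 0.000426), and TNFAIP3 (A20), which ends NF-kB signalling, of 1.27 ± 0.19 (0.000607). The groups did not overlap for any of the 3. The cytokine and chemokine genes CXCL8, CCL5 and IL6 had changes of -0.58, -0.40 and 0.28 and did not pass. All 3 were lowest in DZNep replicate 2, and without it their changes were -0.19, -0.00521 and 0.66, again without passing.

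Of 27 further interferon-stimulated genes, 25 were tested and 4 were called higher, where 10.6% of all genes were. GBP2, a guanylate-binding GTPase, had 20.04, 17.9, 17.9 and 19.3 in Control and 77.1, 78.1, 64.8 and 72.0 in DZNep, a log2 fold change of 1.93 ± 0.23 (edgeR, adjusted p = 0.000152). GBP1 had 21.6, 24.1, 18.8 and 14.0 in Control and 69.8, 192, 75.1 and 66.4 in DZNep. Its highest value was in DZNep replicate 2, and its change of 2.33 ± 0.41 (edgeR, adjusted p = 0.0013) was 1.82 without that library (0.00155).

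GBP4 had 12.3, 8.04, 8.96 and 10.7 in Control and 21.8, 54.0, 12.1 and 21.4 in DZNep. Its change of 1.43 ± 0.48 (edgeR, adjusted p = 0.0344) was 0.86 without DZNep replicate 2 (0.112), and the call was also lost without any of the 4 Control replicates or DZNep replicate 1. TRIM21, a cytosolic antibody receptor and ubiquitin ligase, had 156, 150, 132 and 178 in Control and 448, 327, 305 and 511 in DZNep, a change of 1.34 ± 0.21 (edgeR, adjusted p = 0.000651) with no overlap. Of 10 genes of MHC class I loading none was called, while TAP2 (-0.61; edgeR, adjusted p = 0.00832) passed the adjusted p downward and NLRC5, the class I transactivator (0.85; 0.0222), upward.

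**Figure D5:**
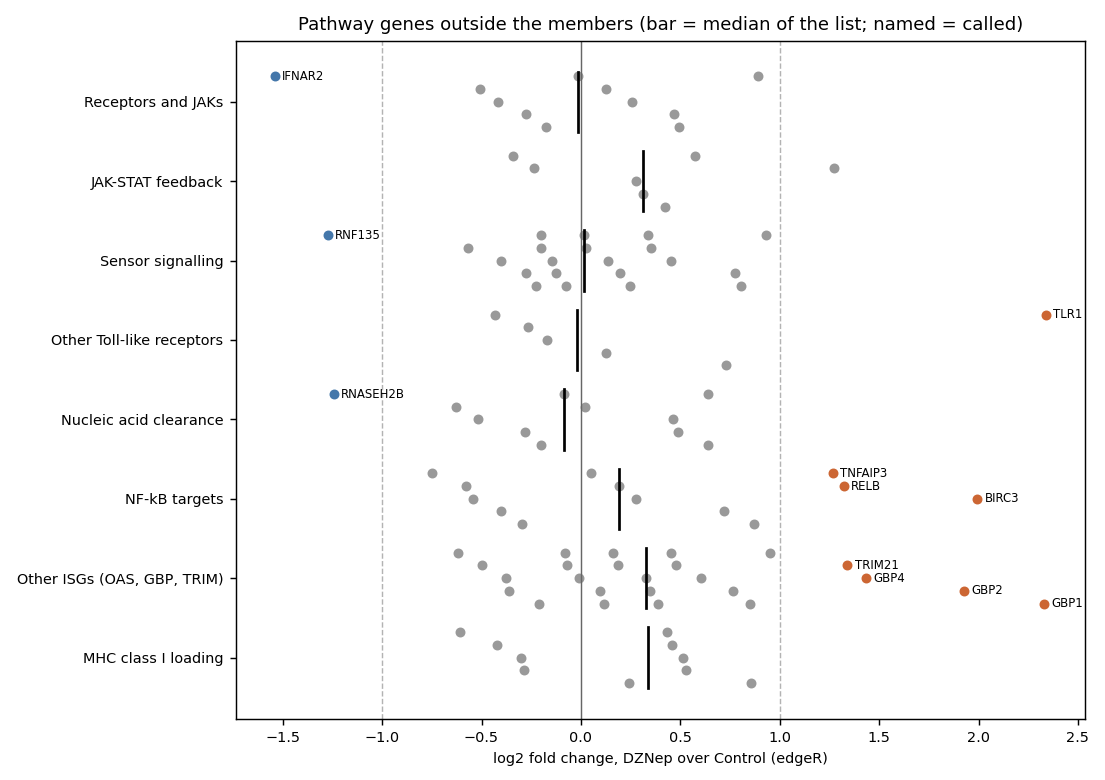
Log2 fold change of DZNep over Control for the 104 pathway genes tested outside the members, 1 point per gene, by list, with a black bar at the median of each list, orange points for genes called higher and blue points for genes called lower. Genes called higher were in the lists of NF-kB targets, other interferon-stimulated genes and Toll-like receptors, and the 3 called lower (IFNAR2, RNF135 and RNASEH2B) were each in another list.

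The ISRE core printed above occurred in members that passed and in members that did not, and the difference was not tested. Of the 10 members with a promoter entry that passed the adjusted p upward, 6 held it, and of the 24 that did not pass in either direction, 15 did. Of the 4 members with an entry that were called higher, IFIT3 and SAMD9 held it, and TLR3 and IRF1 did not in the 250 bases before the start. ISG15, which fell, holds 2 overlapping cores, as does BST2, which was low in 1 library only. With the 50 bases after the start included, 24 of 36 members held the core (4.38% of genes), and with the last base left free 23 did (8.36% of genes). The GAS core of interferon-gamma signalling, searched as TTCNNNGAA on both strands, was in 11 of 36 members and in 8.09% of genes, including 2 of the 3 transcription factors. A match describes these letters and not binding.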

How the data were processed

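RNA from 4 Control and 4 DZNep samples of HEK293T cells had been sequenced. Per the labels and methods, the authors trimmed reads with Trimmomatic 0.36, used STAR 2.5.2b for alignment to GRCh38, and ran featureCounts (Subread 1.5.2) on uniquely aligned exonic reads. The deposited table of counts held 57500 Ensembl genes, of which 56410 were given a symbol from GENCODE v44 by identifier. The annotation release and strand setting of the counting were not given in the sources used here. A further deposited table held the authors' normalized values (a signal: counts scaled by library size factors) for 19118 genes with more than 80 counts in all.

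Counts were tested with edgeR 4.0.16 in R 4.3.3 (TMM scaling, filterByExpr, quasi-likelihood test, Benjamini-Hochberg adjustment over 19171 genes), and a gene was called at an adjusted p under 0.05 and a log2 fold change above 1 or below -1, the thresholds of the study. The fit was tested on simulated counts. Alternatives were other size factors, no or a stricter filter (10 reads in every library), the adjusted p alone, glmTreat, the replicate number as a block, each library left out, DESeq2 1.42.0, and limma 3.58.1 on log2(normalized count + 1). The main test used treatment only, without pairs. Deviations of same-numbered samples from their group means had correlations of 0.136, 0.492, 0.429 and 0.673 for replicates 1 to 4, weakest for replicate 1. Samples of different numbers were not compared in this way, and no source states a pairing. Same-numbered samples were treated as pairs only in the replicate block and in the counts of pairs.

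The members and the other gene lists were chosen with earlier results of these data known. Values per library are given for every called member, every tested sensor and adaptor, and up to 2 further members a list that passed the adjusted p alone. Of the pathway genes, those called and up to 2 a list with the smallest adjusted p are named. ADAR, EIF2AK2, USP18, CXCL10, the 7 members low in 1 library, IFNAR1, SOCS1, MYD88, TBK1, IKBKB, DNASE2, CXCL8, CCL5, IL6, TREX1, GBP5 and the markers were named after their values were seen, as were the limits for a library that stood apart (below 0.5 times, or over 3 times, every other library). A limit of 3 counts stands for a count of 0, which was 0.0668 to 0.12 CPM in these libraries, and covers counting error only. Some genes of the lists are not reported here. Promoter letters came from RefSeq for GRCh38.p14.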

Additional observations from a re-analysis of the deposited data

Results flagged for a closer look

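In each group of 4 libraries, the highest or lowest normalized count was set against the range of its group by Dixon's criterion at its 95% critical value. Of 96 groups tested over the 48 members, 4 had such a value, and chance gives about 1 in 20. DDX60, a helicase, stood out in DZNep replicate 3 with 99.3 normalized counts, above the other DZNep libraries (64.1 to 68.9). PARP9 stood out in Control replicate 4, with 174 below the other Control libraries (204 to 210). XAF1, a pro-apoptotic zinc finger protein, had 8.05 in DZNep replicate 2, the lowest of its group. CXCL10 had 57.2 in the same library, the highest of its group.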

How the results depend on the processing

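The count of members called lower was 1 with median-ratio size factors, library totals, no filter, at least 10 reads in every library, DESeq2 and limma. It was 3 at the adjusted p alone (21.8% of all genes), 0 with glmTreat (1066 of 19171 genes) and 0 to 2 with 1 library left out (2322 to 2993 genes). The count called higher was 16 at the adjusted p alone (19.1% of all genes) and 2 with glmTreat (OASL and IFIT2), where 942 of 19171 genes were. With 1 library left out it was 7 to 9, where 1936 to 2383 of all genes were. With the replicate block, 8 members were higher (11.7% of all genes) and 1 was lower (14.3%). Of pathway genes, 25 were higher and 8 lower at the adjusted p alone, 4 and 1 with glmTreat, and 7 to 12 and 3 to 3 with 1 library left out. Of all genes, 1141 were higher with at least 10 reads, 3656 were higher and 4171 lower at the adjusted p alone, 942 and 1066 with glmTreat, and 1936 to 2383 and 2322 to 2993 with 1 library left out. The median of the sensors and adaptors was 0.68 with at least 10 reads and 0.38 to 0.61 with 1 library left out, and that of the effectors -0.0516 to 0.22. IFITM1 changed sign, at 0.00131 (median-ratio), 0.00292 (at least 10 reads), 0.00265 (replicate block), 0.0735 (library totals), 0.0223 (no filter), 0.0127 (DESeq2), 0.0334 (limma) and -0.22 to 0.21 (1 library left out), as did IFI44 at -0.16 (replicate block), -0.26 (limma) and -0.37 to 0.38. With 1 library left out, IFIH1 ranged from -0.0737 to 0.12, OAS2 from -0.76 to 0.0106, OAS3 from -0.0359 to 0.22, MX1 from -0.70 to 0.0116, SAMD9L from -0.54 to 0.0137, IFITM3 from -0.000203 to 0.49, BST2 from -0.57 to 0.0342 and IFI6 from -0.0516 to 0.36. IRF3 was -0.98 (median-ratio and at least 10 reads), -0.91 (library totals), -0.97 (no filter and DESeq2), -0.99 (replicate block) and -0.96 (limma), and was then not called. The filter of at least 10 reads drops any gene with fewer in 1 library, also one scarce only in Control. Its count therefore rests on fewer genes than the main test, and the number tested also changed with the library left out. How much of the low count follows from this, and the cause of the other changes, was not tested. The data come from 1 cell line, 1 dose and 1 time, and low-count members such as CGAS, DHX58 and OASL rest on few reads.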
